A study of Mus musculus with 8 samples.

Results

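Interferon regulatory factors (IRFs) and signal transducers and activators of transcription (STATs) are the transcription factors through which macrophages read Toll-like receptor, interferon and interleukin signals. IRF3, IRF5 and IRF7 are activated by kinases downstream of microbial sensors, STAT proteins are activated by Janus kinases at cytokine receptors, and IRF9 joins STAT2 in the complex ISGF3, which drives interferon-stimulated genes. IRF1 and IRF8 act mostly through the amount of protein that is made, IRF8 being a lineage factor of monocytes and macrophages. The 9 genes described here (Irf1, Irf3, Irf5, Irf7, Irf8, Irf9, Stat2, Stat3 and Stat6) were taken by name from a table of 55487 mouse genes, and all 9 were listed. A few other genes of the families are given after them.

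The RNA came from J774A.1 cells, an established mouse macrophage line, treated for 24 h with LPS (1 μg/mL), a bacterial cell wall component, or with LPS and UDCA (1 mM), a bile acid. Each group had 4 libraries, and no library without LPS was analysed here, so every value is a level under LPS. The values are TPM, a relative transcript abundance in which reads are divided by gene length, so levels of different genes can be compared. TPM keeps no depth, and errors are therefore the spread between libraries. The labels do not say whether the libraries came from separate cultures, so p-values measure only the spread between these samples. In bulk RNA, fewer cells expressing a gene and less RNA per cell cannot be told apart. Fold changes are differences of log2(TPM + 1), tested with limma over 11796 genes whose mean reached 1 TPM, with Benjamini-Hochberg adjustment (FDR). Genes were called at an FDR under 0.05 and a fold change of at least 2.

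Of 8 macrophage markers, 7 were tested and Mertk was listed at 0 in every library. Their summed level ran from 2799.29 to 2977 TPM in the LPS group and from 916 to 999 TPM in the LPS + UDCA group, and Lyz2 alone gave 1848.05 to 2041 TPM and 410 to 457 TPM of it. Of the 7 markers, 4 were lower (Itgam, Lyz2, Cd68 and Csf1r, log2 fold changes -2.91, -2.19, -1.39 and -1.35) and 3 were higher (Fcgr1, Adgre1 and Ptprc, 1.48, 1.27 and 0.47), all at an FDR under 0.05. The part of this shift in the results below was not tested. Of 8 markers of other cell types, 6 were at 0 in all libraries and no value exceeded 0.08 TPM.

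UDCA changed the makeup of the IRF and STAT set in both directions, mostly by less than 2-fold. At an FDR under 0.05, 5 of the 9 genes were higher with LPS + UDCA (Irf1, Irf9, Stat3, Stat2 and Irf3) and 2 were lower (Irf8 and Irf7), while Irf5 and Stat6 did not pass. Across all genes tested, 40.2% were higher and 32.3% lower by the same rule, 72.5% in either direction, so the number of changed genes among the 9 was close to the background. With median-of-ratios scaling or centring on the median of all genes, 3 were higher and 2 lower. Only Irf1 passed the 2-fold minimum, where 8.71% of all genes tested were called higher and 8.44% lower. On the log2 scale the median change of the 9 genes was 0.23, against 0.08 over all genes tested. The LPS and LPS + UDCA libraries did not overlap in 4 genes that were higher and 2 that were lower (37.0% and 29.9% of all genes tested, 66.8% in either direction).

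**Figure D1:**
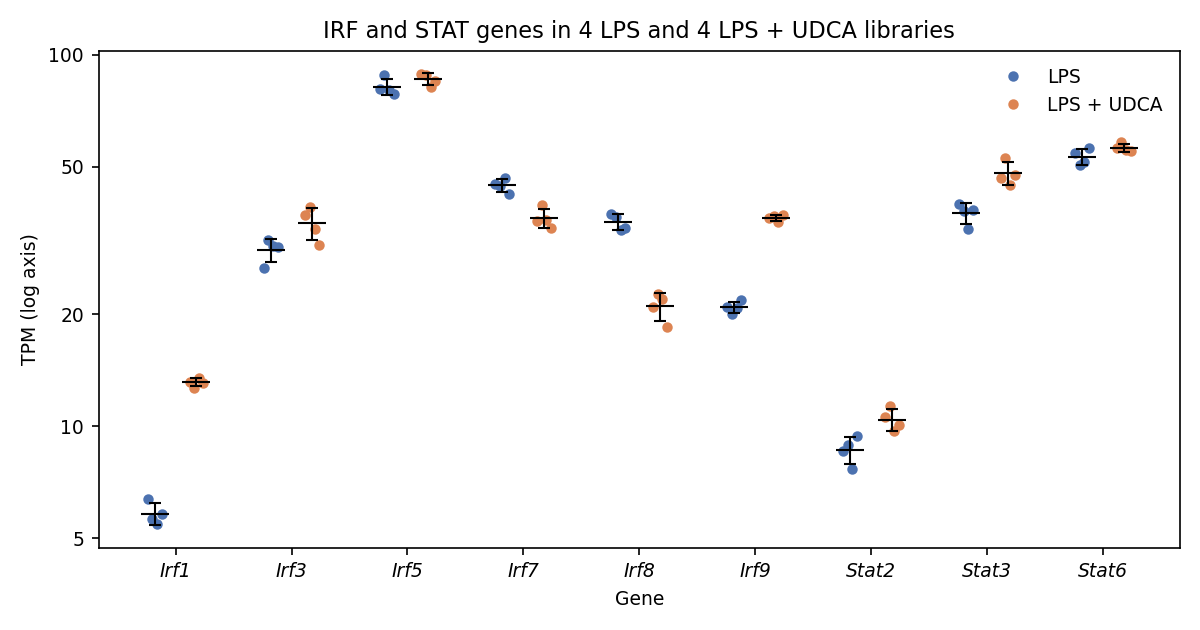
TPM of the 9 genes in each library (points; y axis logarithmic), with the mean and SD of each group as black bars. Irf1 and Irf9 sit higher and Irf8 lower in all 4 LPS + UDCA libraries, while the points of Irf3, Irf5 and Stat6 overlap between groups.

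IRF and STAT genes are themselves regulated by IRF and STAT proteins. To show which response elements lie at the starts of the 9 genes, promoter windows of 300 bases (250 before the start and 50 after it) from RefSeq on GRCm38.p6 were searched on both strands. Windows were available for all 9 genes, 12 in total. The letters searched were GAAANNGAAA for the interferon-stimulated response element, TTCNNNGAA and TTCNNNNGAA for STAT elements, and GGGANTTTCC for the NF-κB element. Matches of different motifs may overlap. Of 32851 mouse promoter windows, 3.44%, 8.30%, 6.95% and 0.411% held them, against 1, 2, 2 and 0 of the 12 windows here. The response element occurred in 1 of the 9 genes (Stat2). The STAT element with 3 spacer bases occurred in 2 genes (Irf1 and Irf8) and that with 4 spacer bases in 2 genes (Irf9 and Stat2). The NF-κB letters searched occurred in 0 of the 9 genes. Other forms of the NF-κB element were not searched, so its absence from these windows is not shown. A match is a description of the letters in these windows.

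The stretches that hold the matches upstream of the start are shown because they belong to the gene that rose most, the gene that fell most and the gene with the response element. The matches are in capitals, and distances are from the RefSeq start. The Irf1 stretch lies at chr11:53769874-53769973 and the match begins 90 bases before the start. The Irf8 stretch lies at chr8:120736158-120736257, with matches that begin 171 and 153 bases before the start. The Stat2 stretch lies at chr10:128270248-128270347, where the response element, read on the opposite strand, begins 222 bases and the STAT element 210 bases before the start. All 3 genes are on the plus strand. The match in Irf9 begins 1 base after the start and reads TTCCTGGGAA.
Irf1: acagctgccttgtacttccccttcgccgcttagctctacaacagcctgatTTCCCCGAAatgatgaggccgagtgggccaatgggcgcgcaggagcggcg
Irf8: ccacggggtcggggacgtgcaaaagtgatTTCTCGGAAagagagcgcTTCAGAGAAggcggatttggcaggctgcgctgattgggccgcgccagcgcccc
Stat2: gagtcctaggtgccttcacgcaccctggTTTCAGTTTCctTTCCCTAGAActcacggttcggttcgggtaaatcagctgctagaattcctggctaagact
The STAT element with 3 spacer bases occurs at Irf1, which was higher with UDCA, and at Irf8, which was lower. Whether any of these matches takes part in the changes was not tested.

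Irf1, on chromosome 11 from 53770014 to 53778374 of GRCm38, encodes an activator of interferon-γ response genes and antigen processing genes. It had 6.37, 5.62, 5.45 and 5.81 TPM in LPS replicates 1 to 4, and 13.18, 12.71, 13.51 and 13.10 TPM in the LPS + UDCA group. Each LPS + UDCA library thus held more than every LPS library, with a narrow spread in both groups. The means were 5.81 ± 0.3997 and 13.1 ± 0.329 TPM (SD, n = 4), a 2.26-fold ratio. The log2 fold change was 1.05 (SE 0.064, limma FDR = 6.7e-07), the highest of the 9 genes, and 8.07% of all genes tested had a higher one. It fell just short of the 2-fold minimum under quantile normalization (0.97), median-of-ratios scaling (0.96) and centring on the median of all genes (0.97), and its FDR passed in each.

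Irf9, on chromosome 14 from 55603571 to 55610030, encodes the DNA-binding subunit of ISGF3. Its level was 20.96, 20.05, 20.77 and 21.85 TPM in the LPS group and 36.27, 36.71, 35.39 and 36.97 TPM in the LPS + UDCA group. Irf9 rose 1.74-fold, with no overlap and with an SD of 0.741 and 0.693 TPM. The log2 fold change was 0.77 (SE 0.044, limma FDR = 4.5e-07).

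Stat2, on chromosome 10 from 128270559 to 128292849, encodes the partner of IRF9 in ISGF3. It was a low member of the set, with 8.57, 8.91, 7.68 and 9.39 TPM in the LPS group and 10.60, 11.31, 9.69 and 10.08 TPM in the LPS + UDCA group. The groups were close but did not overlap. Its log2 fold change was 0.25 (SE 0.077, limma FDR = 0.017). The FDR was 0.068 with quantile normalization, 0.085 with median-of-ratios scaling and 0.081 with centring on the median of all genes.

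The balance of these ISGF3 transcripts moved towards Irf9. The Irf9 to Stat2 ratio of TPM within a library was 2.43 ± 0.199 with LPS and 3.50 ± 0.202 with LPS + UDCA (SD, n = 4, 2-sided exact permutation test on the log2 ratio, p = 0.029, the smallest p that 4 against 4 libraries allow). The LPS libraries spanned 2.25 to 2.70, below the 3.25 to 3.67 seen after UDCA.

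Of the kinase-activated factors, Irf7, on chromosome 7 from 141262706 to 141266481, which amplifies type I interferon production, was lower with UDCA. It had 44.81, 44.40, 46.64 and 42.21 TPM in the LPS group and 35.58, 39.30, 35.92 and 34.20 TPM in the LPS + UDCA group, with no overlap. The log2 fold change was -0.29 (SE 0.054, limma FDR = 9.1e-04). Irf3, on the same chromosome from 44997648 to 45002848, encodes the constitutively made factor of early interferon-β induction. It had 26.74, 31.66, 30.56 and 30.43 TPM in the LPS group and 36.98, 38.83, 34.02 and 30.76 TPM in the LPS + UDCA group. The lowest LPS + UDCA library lay below the highest LPS library. The log2 fold change of Irf3 was 0.23 (SE 0.081, limma FDR = 0.030; 2-sided exact permutation test on TPM, p = 0.057). The FDR was between 0.075 and 0.077 without LPS replicate 1 or without LPS + UDCA replicate 1 or 2, and from 0.0075 to 0.25 over all alternatives. Bcl2l12, on the opposite strand, overlaps Irf3 over 1065 bases and averaged 10.2 TPM in the LPS libraries against 2.88 TPM after UDCA. Of the 31-base words of Irf3 transcripts, 1.66% occur in another gene, and Bcl2l12 shares the most.

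The Irf7 to Irf3 ratio was 1.498 ± 0.134 with LPS and 1.04 ± 0.0637 with LPS + UDCA (SD, n = 4, 2-sided exact permutation test on the log2 ratio, p = 0.029). With LPS alone, Irf7 exceeded Irf3 in all 4 libraries, by 1.39-fold to 1.68-fold. With UDCA the ratio ran from 0.962 to 1.11, so that the transcripts of both factors stood at about the same level.

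**Figure D2:**
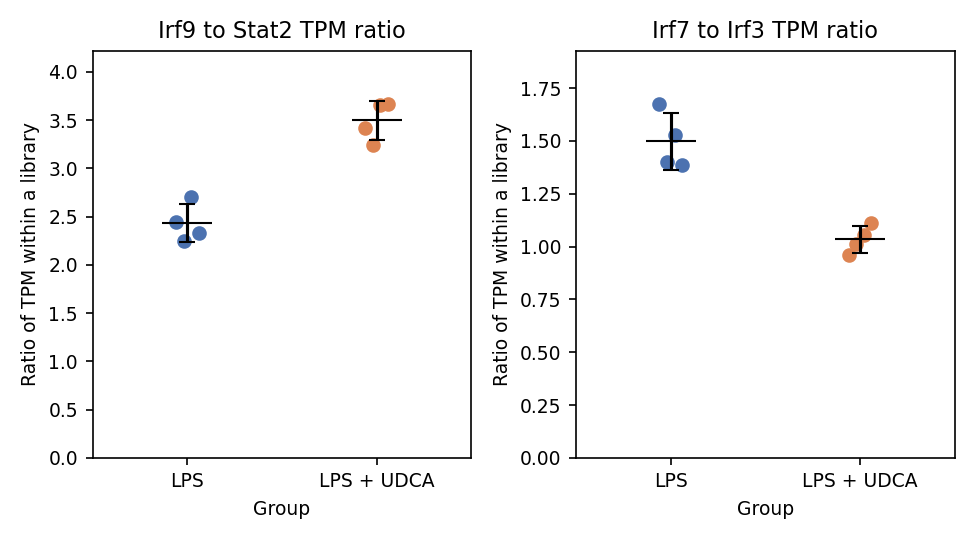
Ratio of TPM within each library for Irf9 to Stat2 (left) and Irf7 to Irf3 (right) in 4 LPS and 4 LPS + UDCA libraries, with mean and SD as black bars. The LPS + UDCA libraries lie above the LPS libraries on the left and below them on the right, without overlap.

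Irf5, on chromosome 6 from 29526625 to 29541871, encodes a factor of inflammatory cytokine transcription downstream of MyD88. It was the most abundant gene of the set in both groups, with 80.76, 88.04, 80.57 and 78.43 TPM in the LPS group and 88.73, 88.15, 81.87 and 84.80 TPM in the LPS + UDCA group. The groups overlapped. The log2 fold change of 0.07 had a 95% interval from -0.04 to 0.17 (limma FDR = 0.22), and its sign was negative with median-of-ratios scaling (-0.04) and with centring on the median of all genes (-0.01), while with quantile normalization it was 0.14 with an FDR of 0.019. Of the 31-base words of Irf5 transcripts, 12.3% occur in another gene, mostly Tnpo3 on the opposite strand.

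Irf8, on chromosome 8 from 120736358 to 120756694, had the lowest log2 fold change of the 9 genes. It was measured at 37.22, 36.67, 33.73 and 34.16 TPM in the LPS group and at 20.88, 22.71, 22.01 and 18.46 TPM in the LPS + UDCA group. The highest LPS + UDCA library was more than 10 TPM below the lowest LPS library. The means, 35.4 ± 1.76 and 21.02 ± 1.86 TPM (SD, n = 4), gave a ratio of 0.593 and a log2 fold change of -0.73 (SE 0.070, limma FDR = 1.2e-05). Of all genes tested, 86.2% had a higher log2 fold change. Gm20388, annotated on the same strand, covers 20337 bases of Irf8 and had no value in the table.

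Stat3, on chromosome 11 from 100885098 to 100939540, encodes the factor that relays IL-6 and IL-10. It had 39.75, 37.92, 33.93 and 38.30 TPM in the LPS group and 46.68, 52.87, 44.69 and 47.58 TPM in the LPS + UDCA group, with no overlap. The log2 fold change was 0.35 (SE 0.066, limma FDR = 0.0011). Stat6, on chromosome 10 from 127642986 to 127660957, encodes the factor that relays IL-4 and IL-13. It had 54.23, 50.40, 51.28 and 56.00 TPM in the LPS group and 56.10, 58.29, 55.40 and 54.98 TPM in the LPS + UDCA group, and the groups overlapped. Its log2 fold change of 0.08 had a 95% interval from -0.02 to 0.19 (limma FDR = 0.12). The FDR was 0.045 with quantile normalization, and the sign was negative with median-of-ratios scaling (-0.02).

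The order of levels differed between the groups. With LPS the order from high to low was Irf5, Stat6, Irf7, Stat3, Irf8, Irf3, Irf9, Stat2 and Irf1, and only Stat3 and Irf8 overlapped among neighbours. With LPS + UDCA it was Irf5, Stat6, Stat3, Irf9, Irf7, Irf3, Irf8, Irf1 and Stat2, where the ranges of Irf9 and Irf7 and those of Irf7 and Irf3 overlapped. Irf9 moved from rank 7 to rank 4, and Irf8 from rank 5 to rank 7. The 9 genes summed to between 310.61 and 324 TPM in the LPS group and to between 331 and 361 TPM in the LPS + UDCA group. Of that sum, Irf8 held 11.2% ± 0.408 with LPS and 6.14% ± 0.438 with LPS + UDCA (SD, n = 4), Irf9 held 6.59% ± 0.296 and 10.6% ± 0.415, and Irf1 held 1.83% ± 0.118 and 3.84% ± 0.235. The shares sum to 100% and are therefore not independent of each other.

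Of the other genes of the families that are given here (Irf2, Irf4, Stat4, Stat5a and Stat5b), Irf4 changed most. Irf4, on chromosome 13 from 30749226 to 30766976, encodes a factor linked to alternative macrophage activation. It had 3.14, 2.55, 2.76 and 3.15 TPM in the LPS group and 0.51, 0.57, 0.48 and 0.58 TPM in the LPS + UDCA group, and its log2 fold change of -1.34 (SE 0.11, limma FDR = 4.5e-06) passed both thresholds. At such low levels the 1 TPM added before the logarithm shrinks the fold change, and the ratio of mean TPM was 0.184. Irf2, which encodes an antagonist of IRF1 at shared sites, rose from 14.8 ± 1.47 to 19.4 ± 2.53 TPM (log2 fold change 0.37, limma FDR = 0.0071). Stat5a fell from 15.9 ± 0.786 to 11.7 ± 1.12 TPM (log2 fold change -0.41, limma FDR = 8.1e-04). Its near copy Stat5b did not pass, with a log2 fold change of -0.17 and a 95% interval from -0.35 to 0.01, although its FDR was 0.012 to 0.021 with quantile normalization, median-of-ratios scaling and centring on the median of all genes. Of their 31-base words, 12.3% of Stat5a and 15.2% of Stat5b occur in another gene. Stat4 was listed at 0 in all 8 libraries.

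**Figure D3:**
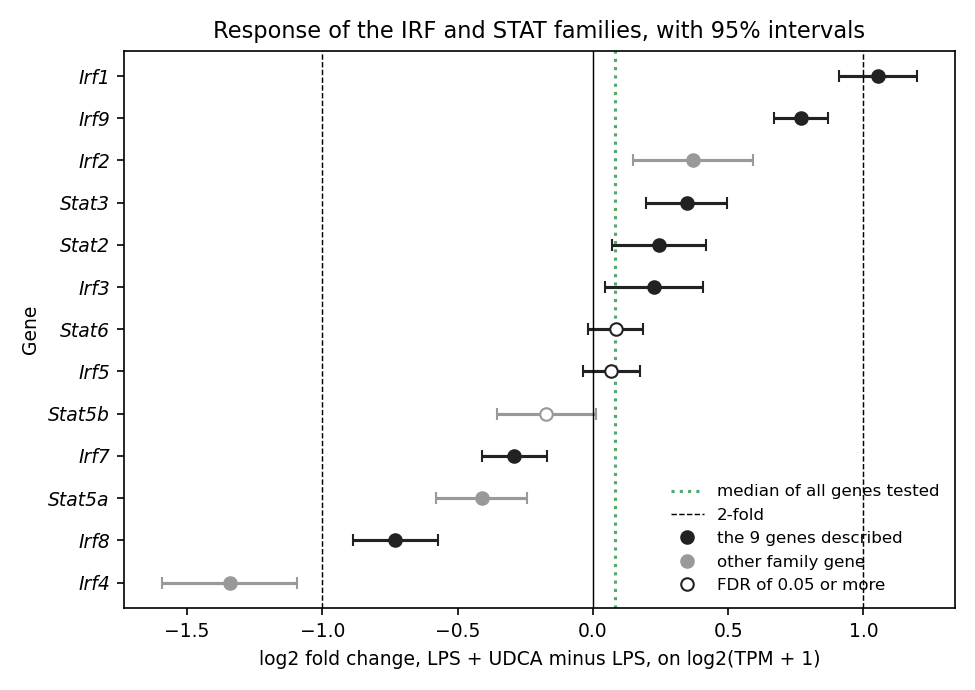
Log2 fold change (LPS + UDCA minus LPS, on log2(TPM + 1)) with its 95% interval from limma for the 9 genes (black) and 4 other genes of the families (grey), with dashed lines at 2-fold and a dotted line at the median of all genes tested, 0.08. Irf1 lies just past 2-fold on the right and Irf4 past 2-fold on the left, and open circles mark Irf5, Stat6 and Stat5b, which did not pass the FDR.

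The genes that feed the 9 factors were then examined by role. Counts of higher and lower genes in each list are at an FDR under 0.05. By that rule 40.2% of all genes tested were higher and 32.3% lower. Of 18 ligands, 8 were tested, 2 of which were higher and 4 lower. Il23a rose most, with 6.14, 6.56, 5.96 and 4.99 TPM in the LPS group and 46.86, 42.40, 50.50 and 51.12 TPM in the LPS + UDCA group (log2 fold change 2.82). It encodes a single chain of IL-23. The partner chain gene, Il12b, was not tested, at 0 to 0.07 TPM with LPS and 0.56 to 0.59 TPM with LPS + UDCA. Il6, whose receptor activates STAT3, rose as well, from 95.8 ± 7.67 to 241 ± 20.3 TPM (log2 fold change 1.32). Il10, the other main STAT3 ligand of macrophages, fell most, with 74.98, 75.05, 78.64 and 78.05 TPM in the LPS group and 13.11, 14.18, 13.64 and 10.75 TPM in the LPS + UDCA group (log2 fold change -2.49). Il27, Lif and Osm were lower, with log2 fold changes of -0.89, -0.95 and -0.45. Ebi3 (-0.08) and Il15 (0.22) did not pass, and Ebi3 had an FDR of 0.0043 with median-of-ratios scaling (-0.18) and of 0.015 with centring on the median of all genes (-0.16). The interferons were low. Ifnb1 had 0.310 ± 0.136 and 0.595 ± 0.361 TPM and was not tested. Of the 18 ligands, 7 were listed at 0 in every library, among them Ifng, Ifna4, Il4 and Il13.

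Of 15 receptor genes tested, 4 were higher and 8 lower at an FDR under 0.05, around a list median of -0.21 on the log2 scale. Past both thresholds, Csf2rb and Csf2ra, the GM-CSF receptor chains, were lower (log2 fold changes -1.43 and -1.19). Chosen after their values were seen, both chains of the type I interferon receptor rose, Ifnar1 from 10.6 ± 1.14 to 20.2 ± 0.781 TPM and Ifnar2 from 44.0 ± 2.80 to 83.2 ± 0.768 TPM (SD, n = 4). The receptor genes named in the rest of this paragraph were also chosen after their values were seen. The chains of the IL-10 receptor went apart, Il10ra with a log2 fold change of -0.96 and Il10rb with 0.91. The chains of the IL-6 receptor did so too, Il6st rising from 4.96 ± 0.448 to 9.88 ± 0.727 TPM and Il6ra falling from 9.52 ± 0.957 to 7.34 ± 1.05 TPM (log2 fold changes 0.87 and -0.34). The remaining receptor genes that were lower were Il4ra (-0.80), Il12rb1 (-0.41, FDR 0.052 with the replicate number as a block), Il13ra1 (-0.30) and Ifngr2 (-0.21).

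Among the 4 Janus kinases, Jak2 rose past both thresholds from 4.34 ± 0.653 to 10.3 ± 0.781 TPM (log2 fold change 1.09, limma FDR = 9.7e-06). The Jak2 fold change was just under 2-fold with quantile normalization and median-of-ratios scaling. Jak1 was higher (0.33) and Jak3 lower (-0.70) at an FDR under 0.05. Tyk2 did not pass (-0.09), although it was lower at an FDR of 0.0091 to 0.028 with quantile normalization, median-of-ratios scaling and centring. Of 19 tested sensors, adaptors and kinases that activate IRFs, 11 were higher and 5 lower, with a median log2 fold change of 0.23 (9 higher and 7 lower with median-of-ratios scaling). Ticam2, an adaptor of TLR4 signalling to IRF3, rose most (1.43), and Sting1, the receptor for cyclic dinucleotides, fell most (-2.26). The kinases that phosphorylate IRF3 and IRF7, chosen after their values were seen, moved apart, Tbk1 from 21.2 ± 3.28 to 41.1 ± 3.58 TPM and Ikbke from 26.6 ± 2.38 to 12.4 ± 1.80 TPM.

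Of 16 inhibitors tested, 4 were higher and 7 lower (list median 0.01 on the log2 scale). Socs3, the feedback inhibitor of STAT3 signalling from IL-6 receptors, had the lowest value of the list (-2.96), at 306 ± 6.67 TPM in the LPS libraries and 38.9 ± 7.40 TPM in those with UDCA. Pias1, an inhibitor of STAT signalling, rose most (1.07, but 0.96 with median-of-ratios scaling and 0.99 with centring). Of 7 tested partners of the factors, 3 were higher and 3 lower (median 0.04), and only the coactivator gene Crebbp passed both thresholds (1.31).

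Target genes were grouped by a factor reported to drive them. Most are driven by several factors, so a list does not measure the output of its factor alone. Counts are again at an FDR under 0.05, by which 40.2% of all genes tested were higher and 32.3% lower. Of 23 ISGF3 targets tested, 9 were higher and 5 lower at an FDR under 0.05, with a median log2 fold change of 0.03. The split was 8 and 7 with quantile normalization, and 7 and 6 with median-of-ratios scaling or centring. Of all ISGF3 targets only Oas1a, an antiviral 2'-5' oligoadenylate synthetase gene, and Zbp1, a nucleic acid sensor gene, passed both thresholds, and both were lower (-1.62 and -1.04). Among the 9 that were higher, Rtp4, named after its values were seen, rose most, from 21.5 ± 1.10 to 42.2 ± 1.67 TPM (0.94). Zbp1 was between -0.99 and -0.92, short of 2-fold, without LPS replicate 2 or without LPS + UDCA replicate 1, 3 or 4. Of 12 IRF1 targets tested, 3 were higher and 7 lower, with a median of -0.33. Casp1 rose most (1.35), followed by Cd274 (1.33) and Gbp3 (1.11, just under 2-fold with quantile normalization), both named after their values were seen. Nos2, inducible nitric oxide synthase, fell most, from 293 ± 7.53 to 75.8 ± 4.16 TPM (-1.94). The immunoproteasome genes Psmb8, Psmb9 and Psmb10, named after their values were seen, were lower (-1.55, -1.31 and -1.04, the last -0.97 without LPS + UDCA replicate 1).

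All 16 STAT3 targets were tested, and 11 were lower and 3 higher, with a median log2 fold change of -0.73. Of all genes tested, 32.3% were lower and 40.2% higher by the same FDR rule. Il1rn, which encodes the IL-1 receptor antagonist, fell most (-3.37), and Myc was the least lowered past both thresholds (-1.27). Of the 3 higher genes Lcn2, named after its values were seen, rose most, from 594 ± 6.95 to 994 ± 134 TPM (0.73). Socs3 and Il4ra, both lower, are also counted in the lists of inhibitors and receptors. Of 16 STAT6 targets only 5 were tested, of which 2 were higher and 1 lower. Egr2 fell (-1.80, with a ratio of mean TPM of 0.112), and Ccl22 and Kdm6b, named after their values were seen, rose (0.49 and 0.72). Of the 16, 9 stayed under 1 TPM in every library, including Mrc1, Retnla and Mgl2.

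**Figure D4:**
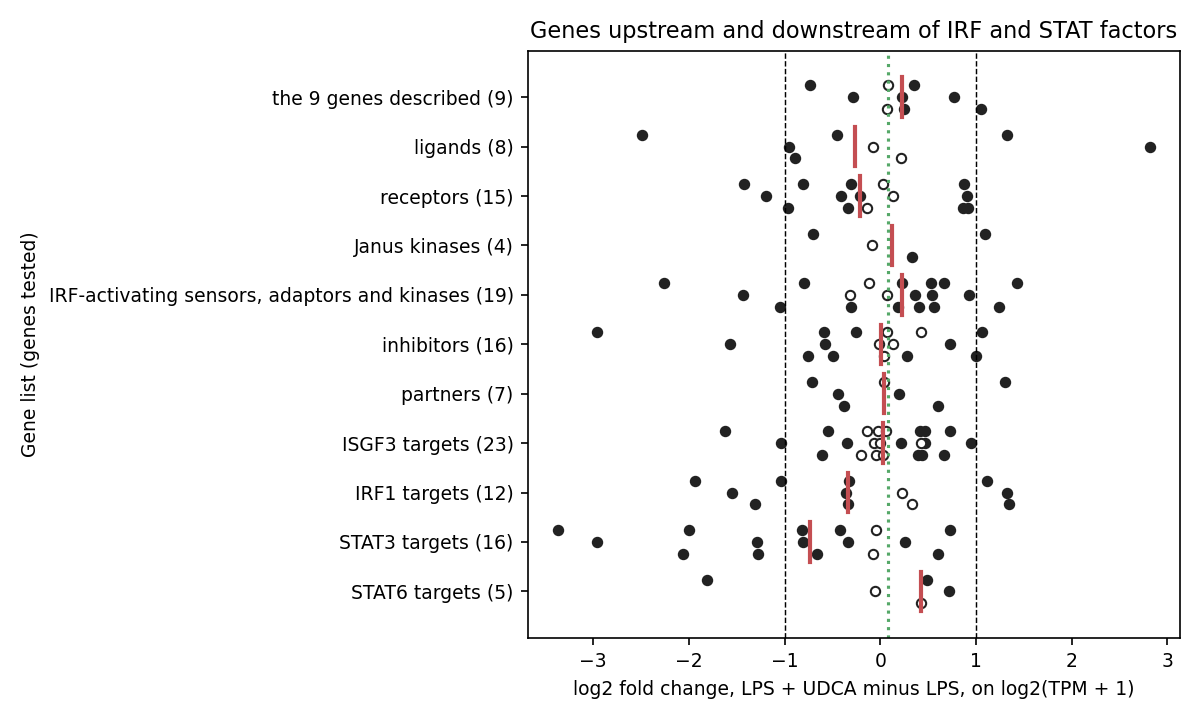
Log2 fold change (LPS + UDCA minus LPS, on log2(TPM + 1)) of each tested gene in the lists of ligands, receptors, kinases, inhibitors, partners and targets, with filled points for an FDR under 0.05, red bars at list medians, dashed lines at 2-fold and a dotted line at the median of all genes. Among the lists drawn, the median of the STAT3 targets, -0.73, lies farthest to the left. The macrophage markers, which are not drawn, had a lower median, -1.35.

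The genes whose profile over the 8 libraries was nearest to that of Irf1, among 7065 genes averaging 10 TPM or more, were Slc19a2, Aldh1l2 and Pigc, at root mean square distances of 0.038, 0.047 and 0.049 on the centred log2 scale. Those nearest to Irf8 were 1810037I17Rik, Efhd2 and Nelfcd, at distances of 0.042, 0.044 and 0.045. With 2 groups of 4 libraries, nearness rests mainly on a like difference between the groups. Slc19a2 had 24.2 ± 1.61 and 52.2 ± 0.689 TPM, and Efhd2 had 267.9 ± 11.9 and 168 ± 13.1 TPM (SD, n = 4).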

How the data were processed

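RNA was sequenced by the authors on an Illumina HiSeq instrument from TruSeq libraries of J774A.1 cells and analysed on a commercial platform. The submitters' processing notes name Bowtie 0.12.2 and the builds mm10 and GRCm38; the counting program and its use of strand are not given in the sources used here. The authors deposited TPM per gene to 2 decimals, a unit inferred from column sums of 958918 to 977485. Libraries were grouped by the treatment in the labels, LPS against LPS + UDCA. The study's results use the same groups, whereas its methods word the design as UDCA given in the presence or absence of LPS, which was not followed.

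Genes averaging 1 TPM or more were compared on the log2(TPM + 1) scale by the moderated linear model of limma 3.58.1 (R 4.3.3), letting the prior variance follow the mean. The fit was tested on simulated data. Ratios and single genes were compared by 2-sided exact permutation tests over 70 arrangements. The genes and lists were chosen with earlier results of these data known. Named genes were, by rule, the IRF and STAT families (some genes are not reported here), the Janus kinases, the tested ligands, the extremes of each list past both thresholds, and the 3 nearest profiles to the highest and the lowest of the 9 genes. Positions and overlaps are from GENCODE M21 (GRCm38), in which 55227 of 55487 identifiers were found, and which may differ from the authors' annotation. Alternatives covered scaling, pseudocount, filter, variance trend, replicate block, each library left out and the fold minimum. Those by centring and by a ratio of mean TPM, and those for genes outside the 9, were added after seeing the data. Tables and plots were made in Python 3.11.15 (pandas 2.3.3, matplotlib 3.10.9).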

Additional observations from a re-analysis of the deposited data

Results flagged for a closer look

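A library stood apart from the other 3 of its group in 8 of 84 sets of values (genes named by rule, each treatment), judged by Dixon's ratio at the 95% level. About 1 in 20, or 4.2 sets, would do so by chance. None was from the 9 genes. Irf2 was highest in LPS + UDCA replicate 2 (23.2 TPM), as were Zbp1 (4.67 TPM) and Fcgr1 (120.85 TPM). Ebi3 was lowest in LPS + UDCA replicate 4 (115.3 TPM) and Csf2ra in LPS + UDCA replicate 3 (16.8 TPM). Jak3 was highest in LPS replicate 1 (9.03 TPM), Csf2rb was highest in LPS replicate 4 (14.0 TPM) and Egr2 was lowest in LPS replicate 3 (3.07 TPM).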

How the results depend on the processing

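Irf1, Irf7, Irf8, Irf9 and Stat3 kept their direction and an FDR under 0.05 in all 18 alternatives (Irf1 from 0.96 to 1.16, Irf7 from -0.40 to -0.26, Irf8 from -0.83 to -0.67, Irf9 from 0.66 to 0.79 and Stat3 from 0.24 to 0.38 on the log2 scale). Irf3 no longer passed the FDR in 7 and Stat2 in 3 of 18. Past both thresholds, 0 of the 9 genes were higher with quantile normalization or median-of-ratios scaling (at an FDR under 0.05, 7 and 5 genes changed by limma), 5 were higher and 2 lower without a fold minimum, and 2 were higher and 1 lower at 1.5-fold. Over all genes, 1028 were called higher and 995 lower, 683 were higher at a mean of at least 5 TPM, where fewer genes were tested (5 of the ISGF3 targets were then higher at an FDR under 0.05, against 9), 4741 higher and 3807 lower without a fold minimum, and 2574 and 2076 at 1.5-fold. Signs turned for Irf5 (-0.040 with median-of-ratios scaling and -0.014 with centring), Stat6 (-0.023 with median-of-ratios scaling) and Ebi3 (0.0017 with quantile normalization), none of them past the FDR on the unaltered scale, and the cause was not tested. The share of Stat6 changed by -0.26 percentage points, and by -0.64 to 0.069 with 1 library left out, turning without LPS replicate 4.

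Deviations from the group means correlated across genes by -0.035 to 0.15 (mean 0.088) in same-numbered pairs, 3 of 4 of which were over 0.1, and by -0.14 to 0.16 (mean -0.029) in differently numbered pairs. Of 8 libraries, 5 correlated best with their own number. The labels do not say that a number marks a shared culture or day, so the libraries were not treated as pairs. With the replicate number as a block, 1034 genes were higher and 1000 lower, 2020 genes being called with and without it, and 7 of the 9 genes passed the FDR.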
